A study of Rattus norvegicus with 9 samples.

Results

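Cardiac arrest was compared with sham operation in the cerebral cortex of male Wistar rats, on the 5 of 9 arrays that were scanned on the later of the study's 2 scan days. The arrays were chosen by the scan day in their scanner headers, and all of them lay on 1 slide. They were CA-ROSC (return of spontaneous circulation after cardiac arrest, CA) replicates 1 and 2 and blank control replicates 2, 3 and 4, with 1 rat per array. The rats of the CA group had been fasted overnight and given pentobarbital at 30 mg/kg. A current of 6 V at 50 Hz, led through the chest for 10 s, brought on ventricular fibrillation, ventilation was stopped, and chest compressions with ventilation began after 8 min. These rats were kept for 2 h after circulation had returned, while the blank controls had a sham operation, whose anaesthesia and duration the labels do not give. The series as a whole had 5 CA rats and 4 sham rats, and the remaining 3 CA arrays and 1 control array came from the earlier scan day. Total RNA from whole cortex was labelled with Cy3 and hybridised to 1-colour Agilent arrays with probes for mRNAs and long noncoding RNAs. In whole tissue, fewer cells of a type and less RNA per cell cannot be told apart.

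Cardiac arrest stops blood flow to the whole brain, and resuscitation brings blood back to tissue that has lost its energy supply. In the first hours of reperfusion the cortex is known for a burst of early-response transcription and for the induction of heat shock and inflammatory genes. Haemoglobin transcripts come mainly from red blood cells and young red cells, and therefore serve as markers of blood in a tissue sample.

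Each level below is the log2 signal of a 60-base probe minus the 75th percentile of its array, so that 0 is a bright probe and a difference of 1 is 2-fold. No file used here ties a probe to a gene. Probes are therefore named by their identifiers, and a gene is named only where the probe's sequence matched a RefSeq window of 300 bases around a gene start (GRCr8, 250 bases before the start and 50 after it). Of 40351 sample probes, 26884 were well above background on all 5 arrays and were tested, and 461 of these matched a window. Of 647 genes on 25 response and cell-type lists, 13 had a matching probe, and only 4 had a tested probe that ran into the transcript. The lists could therefore not be described as groups, and the labelled tissue could not be checked against cortical cell markers.

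The probes that carry the comparison are shown by 30 of their 60 bases, 5′ to 3′ as the files give them, in lower case. The first 5 are probes that were higher after CA. Capitals mark the 8 bases with which CUST_11526_PI429484123 ends and A_44_P1042876 begins, and A_43_P11616 is the probe whose higher signal had the largest lower bound. The last 4 are the probes called lower.
CUST_11526_PI429484123: tgagtttgttacattttgtatgCTCGTGGG
A_44_P1042876: CTCGTGGGttttttatatattcaaattaag
A_42_P535644: agctggtccaacagtcgtatcctggtgaat
A_64_P020938: ggacttgggaggaaggcggggctaagcctg
A_43_P11616: tctgtgaaatcctcagtgttcaatccagac
A_44_P563447: aagaaaacgcagaaatgggcgtcattaggc
A_64_P096277: gagaactttacaatttgaaggactagactg
A_64_P079528: gaaggcctcttctgttttcccaattcggtt
A_64_P003254: ttctccttgggtttgtcatcattggagctc
CUST_11526_PI429484123 is shown by its bases 31 to 60, and the others by their bases 1 to 30. None of these 9 probes matched a gene-start window, so no gene is given for them.

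The 5 arrays had similar detection and similar overall patterns. Between 70.3% and 73.5% of sample probes were well above background on each array. Spearman's correlation over the tested probes was 0.969 between both CA arrays, 0.961 to 0.980 between a CA and a control array, and 0.980 to 0.984 between controls. It describes probes that share an array and is no test. The control probes for the housekeeping gene GAPDH, a glycolytic enzyme, read 6.04 and 6.32 at its 3′ site on CA replicates 1 and 2 and 6.29 to 6.44 on the controls. The 3′ signal exceeded the 5′ signal by 1.89 and 1.99 on the CA arrays and by 1.95 to 2.09 on the controls. For the control gene PGK1 this gap was 1.22 and 1.46 on CA replicates 1 and 2 and 0.97 to 1.30 on the controls. CA replicate 2 was thus above every control for PGK1. The gap is a measure of RNA integrity whose part in the results was not tested. On the slide, CA replicate 1 lay in row 1, and the other 4 arrays lay in row 2. What row 1 and that rat's RNA each add to CA replicate 1 cannot be told apart.

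Only 7 probes differed between CA and sham by limma's test (2-sided, Benjamini-Hochberg adjusted p under 0.05). There were 3 probes higher after CA (0.0112% of those tested) and 4 lower (0.0149%). Before adjustment, 2259 probes (8.4% of those tested) had a p under 0.05, with 1153 higher and 1106 lower. A one-sided exact permutation test over the 10 splits of 2 against 3 arrays cannot give less than 0.1, so single probes are set against the control range.

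The largest difference among the probes called higher was that of CUST_11526_PI429484123, a custom-design probe. It read 2.23 and 1.93 on CA replicates 1 and 2, against -2.41, -2.91 and -1.67 on control replicates 2, 3 and 4. Both CA arrays lay at least 3.61 log2 units above the highest control. The means were 2.08 ± 0.21 (SD, n = 2) and -2.33 ± 0.62 (SD, n = 3), a difference of 4.41 with a 95% interval of 3.58 to 5.24 and an adjusted p of 0.0311 by limma.

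A_44_P1042876 had a similar pattern over the arrays. Its levels were 1.57 and 1.25 after CA and -3.35, -3.74 and -2.19 in the controls, again with control replicate 4 the highest of the controls. Its difference of 4.50, or 22.6-fold, was the largest positive difference among all tested probes, and limma gave it an adjusted p of 0.0541, just past the threshold. Among the 344 probes raised by the 2-fold criterion below, 13 ordered pairs shared at least 8 bases end to start, and this pair had the largest differences of them. How many such pairs unrelated probes would give was not worked out. The shared bases therefore do not show that both probes lie on the same transcript.

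A_42_P535644 separated the groups with less spread. It read 2.21 and 1.94 after CA and -0.45, -1.01 and -0.69 in the controls. The difference was 2.79, or 6.94-fold (95% interval 2.27 to 3.31 on the log2 scale, limma adjusted p = 0.0311). A_64_P020938 read 1.17 and 1.52 after CA and -0.62, -0.94 and -0.79 in the controls, a difference of 2.13, or 4.36-fold, with a limma adjusted p of 0.0491. In both probes the lower CA array was more than 1 log2 unit above the highest control. With the deposited values, the differences were 1.11 for CUST_11526_PI429484123, 0.70 for A_42_P535644 and 1.78 for A_64_P020938, and none was called (limma adjusted p = 0.378, 0.506 and 0.218). A_44_P1042876 had 1.20 there, with an adjusted p of 0.361 by limma.

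Of the probes called lower, A_44_P563447 fell furthest. It read -4.35 and -3.91 on the CA arrays and -0.59, -0.41 and 0.04 on the controls, so that both CA arrays lay at least 3.32 below the lowest control. The difference was -3.81, a 14.1-fold lower signal (95% interval -4.40 to -3.23, limma adjusted p = 0.0311). A_64_P096277 read -3.34 and -3.58 against -0.47, -0.98 and -0.72, a difference of -2.74. The same order held for A_64_P079528, at -3.66 and -3.18 against -0.88, -0.53 and -0.86, and its difference was -2.66. A_64_P003254 read -4.11 and -3.94 against -1.70, -2.01 and -1.66, a difference of -2.24. All 3 had a limma adjusted p of 0.0311. With all 9 arrays and scan day as a block none of the 4 was called: their differences were -1.75, -0.94, -1.52 and -2.26 in the same order, with limma adjusted p-values of 1.0, 1.0, 0.980 and 0.0708. With the deposited values the differences were -7.29, -6.78, -6.80 and -5.38, and all 4 were called. Without the filter on dim probes none of the 7 calls was kept. The calls rest on few arrays: without control replicate 2 or control replicate 3 no probe was called in either direction (2015 and 2136 probes at an unadjusted p under 0.05), and without control replicate 4 limma called 2 higher and 1 lower. Without CA replicate 1, limma called 3 higher and 1 lower, and none of the 3 was among those called with all 5 arrays. Without CA replicate 2, the counts were 180 higher and 79 lower. In these last fits the lone CA array is assumed to vary as the controls do.

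**Figure D1:**
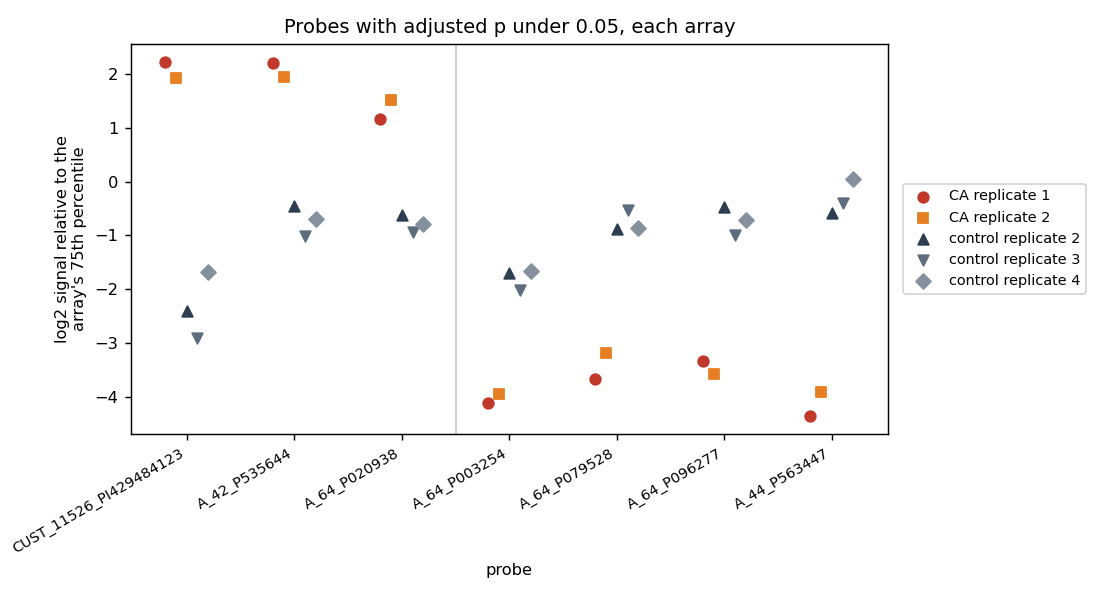
Level of the 7 probes with a limma adjusted p under 0.05 on each array, in log2 units from the 75th percentile of that array. Each point is 1 array. The 3 probes on the left have both CA arrays above all controls, and the 4 on the right have both below, with no overlap between groups.

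More probes lay outside the control range by a criterion without a test. On 3067 probes (11.4%) both CA arrays were above all 3 controls, and on 3236 (12%) both were below. If order alone decided, both CA arrays would be above in 1 of the 10 splits, a share of 0.1, and below in another. These counts are near that share and do not by themselves mark a difference. With a mean difference of at least 2-fold as well, 344 probes were raised (1.28%) and 210 were lowered (0.781%). At 4-fold the counts were 30 (0.112%) and 17 (0.0632%). With each CA array at least 2-fold beyond the nearest control, 62 probes were higher (0.231%) and 42 lower (0.156%).

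The CA arrays did not contribute equally. CA replicate 1 alone was at least 2-fold above the highest control on 421 probes and at least 2-fold below the lowest on 234. For CA replicate 2 these counts were 195 and 176. Of the 344 raised probes, CA replicate 1 read higher than CA replicate 2 on 212, and on 131 the gap between them was at least 2-fold, against 26 with such a gap the other way. Among the 210 lowered probes the CA arrays were more alike: CA replicate 1 was the higher on 96 and CA replicate 2 on 114. One CA array thus sets much of the size of many raised probes.

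**Figure D2:**
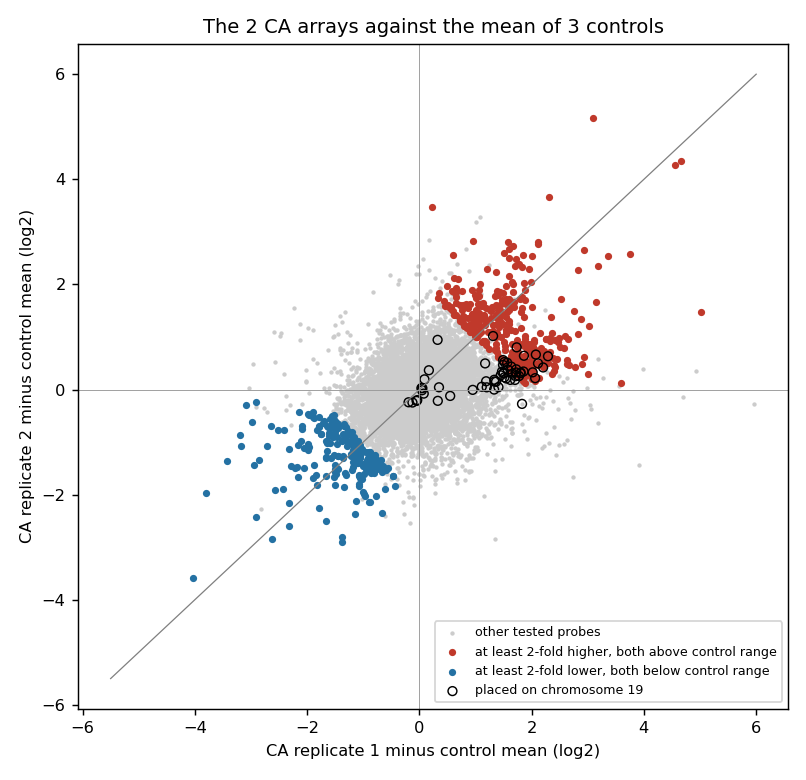
Difference of each CA array from the mean of the 3 controls (log2), with CA replicate 1 on the horizontal and CA replicate 2 on the vertical axis, for 26884 tested probes. Red marks the 344 raised and blue the 210 lowered probes, open circles mark probes placed on chromosome 19, and the diagonal is equality. Of the 56 chromosome 19 probes 53 lie below the diagonal, and 41 are at least 2-fold above the control mean on CA replicate 1 against 1 on CA replicate 2.

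Other large differences varied in how alike the CA rats were. A_64_P131051 read 0.75 and 2.82 after CA and -2.44, -2.62 and -1.97 in the controls, with CA replicate 2 the higher. A_43_P16887 read 2.13 on CA replicate 1 and -1.42 on CA replicate 2, and the controls read -2.09, -3.60 and -2.97. The first had a difference of 4.12 and a limma adjusted p of 0.0895, and the second a difference of 3.24 and an adjusted p of 0.397. A_64_P131051 kept a large gap on both CA arrays, whereas the difference of A_43_P16887 was mostly that of 1 rat.

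Where probes overlapped in sequence, their values could be set side by side. A_64_P123603 and CUST_47279_PI429483654 align over 51 bases with 4 mismatches. The first read 3.03 and 3.74 after CA against 1.43, 0.41 and 0.92, and the second 1.54 and 2.26 against 0.03, -0.59 and -0.36. Both were highest on CA replicate 2, with differences of 2.46 and 2.21 and limma adjusted p-values of 0.0895 and 0.0834. Among the lowered probes, A_42_P721270 and A_64_P021970 share 48 bases exactly. They read 2.19 and 2.18 against 3.76, 3.62 and 3.70, and 1.88 and 1.81 against 3.48, 3.27 and 3.39. Their differences were -1.51 and -1.53, with adjusted p-values of 0.0592 and 0.0606 by limma. These pairs were chosen after their values were seen, and probes that share sequence are not independent.

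Raised and lowered probes did not stand apart by base composition. The median GC content was 45.0% in the raised, the lowered and all tested probes. The letters ATTTA, known from mRNAs that decay quickly, were searched on the strand the files give. They occurred in 6.40% of raised and 9.05% of lowered probes, and in 6.22% of all tested probes. Custom-design probes made up 15.4% of the raised and 17.1% of the lowered probes, against 19.3% of all tested ones. The median level was -1.66 in the raised and -1.23 in the lowered probes, and -0.76 in all tested probes. Grouped by shared sequence (at least 25 bases at 90% identity), the 344 raised probes formed 298 groups, the largest of 17 probes, and the 210 lowered probes formed 206, the largest of 2.

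Some probes were well above background only on 1 side. On 149 of the 40351 sample probes the signal was well above background on both CA arrays and on none of the 3 controls, and on 94 it was the reverse. Counts for other splits of the arrays are not given, so these are not read as an effect of CA. For these a fold is a lower bound. It sets the mean of the bright group against the mean, over the dim arrays, of the lowest signal well above background or the probe's own signal, whichever was higher. The bound was at least 2-fold for 63 and 49 probes. It went down to 1.05-fold and 1.35-fold, for probes that lie close to the background limit on both sides. These probes were outside the test.

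A_43_P11616 had the largest bound. It read -0.22 and 1.28 after CA, and -6.59, -5.85 and -5.88 in the controls, where it was not well above background. Its signal was at least 57-fold higher after CA. A_42_P473398 followed, at least 16.7-fold higher, with 0.21 on CA replicate 1 and -2.70 on CA replicate 2. In the other direction A_43_P15565 was at least 8.26-fold lower, with -4.90 and -5.18 after CA and -2.46, -1.35 and -2.16 in the controls. Both CA arrays were alike in A_43_P15565, and they differed by over 1 log2 unit in the other 2 probes.

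Of the 72 tested probes that matched 1 gene, 15 had both CA arrays above the control range and 7 had both below, against 11.4% and 12% of all tested probes. None of them passed limma's test (9 of the 15 and 3 of the 7 had an unadjusted p under 0.05). The largest positive differences belonged to probes matched to globin and histone genes. The globin probes and 1 histone probe are shown here by their bases 1 to 30. Capitals in the alpha-globin probe mark its first ATG, since the probe spans the gene's translation start.
A_44_P306307: tgcttctgacatagttgtgttgactcacaa
A_64_P032502: agactcaggaagcaatcATGgtgctctctg
A_64_P068622: tctgtttgaggacaccaacctatgcgccat

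Hbb encodes a beta chain of haemoglobin. Its probe, A_44_P306307, matched chr1:167663672-167663721 (GRCr8, minus strand) over 50 bases without a mismatch, which are the first 50 bases after the gene start. It read 1.97 on CA replicate 1 and -0.37 on CA replicate 2, against -0.88, -0.74 and -0.76 in the controls. The controls lay close together, CA replicate 1 stood far above them, and CA replicate 2 was 0.37 above the highest. The difference was 1.595 with a standard error of 0.59 and a limma adjusted p of 0.517, and without CA replicate 1 it was 0.43.

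The alpha-globin probe A_64_P032502 matched Hba-a1 at chr10:15842531-15842564 (minus strand) over 34 bases. It matched the copy Hba-a2 over all but the last of those bases, so the copies cannot be told apart. It read 4.32 and 1.91 after CA and 1.23, 1.38 and 1.66 in the controls. CA replicate 1 was again far above the controls, and CA replicate 2 was 0.25 above the highest of them. The difference was 1.69 with a standard error of 0.62 (limma adjusted p = 0.509). These were the 2 red-cell markers that could be measured, and their part in the other raised probes was not tested.

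Some probes matched start windows of histone genes and carry the symbol of that window. A_64_P068622 matched H4cl1 at chr17:41796579-41796638 (plus strand) with 2 mismatches over 60 bases, but its bases encode part of histone H3. It read 4.93 and 3.62 after CA and 3.03, 2.72 and 2.87 in the controls. The other named probes at histone windows were A_64_P042352 and A_64_P099465. A_64_P042352, at H4f3 but with coding bases of histone H1, read -1.07 and -2.47 against -2.73, -2.89 and -2.82. A_64_P099465, at Hist1h4m and with coding bases of histone H4, read -0.59 and -1.14 against -1.56, -2.19 and -1.45. In all 3 probes CA replicate 1 was the higher CA array. Both CA arrays were above every control by the rule that named these probes, so this is not agreement between them. The differences were 1.40, 1.05 and 0.86, with limma adjusted p-values of 0.347, 0.506 and 0.452. The window's symbol thus does not always name the histone, and copies of a histone gene have similar coding sequences. The gene behind each probe is therefore uncertain.

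A smaller difference was seen for Spin1. The probe of this gene, a chromatin reader, read -3.81 and -3.18 against -4.38, -4.19 and -4.29, a difference of 0.79. Both CA arrays were above the controls, CA replicate 2 was the higher, and limma's adjusted p was 0.388. The probes A_64_P012252, A_64_P096136 and A_64_P023120, which also had both CA arrays above the controls, are made mostly or wholly of GA-rich repeats, so their signal cannot be assigned to the gene they matched. Their differences were 0.44, 0.41 and 0.36, with limma adjusted p-values of 0.567, 0.660 and 0.693.

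Lower values were found for Hs6st3, an enzyme that adds sulfate to heparan sulfate, and for the olfactory receptor gene Or10g9b. The Hs6st3 probe, A_64_P100526, read -1.98 and -1.92 after CA and -1.36, -1.06 and -1.64 in the controls. The Or10g9b probe, A_44_P217383, read 2.08 and 2.18 against 2.43, 3.00 and 2.66. The CA arrays were alike in both genes, and the differences were -0.59 and -0.56 with adjusted p-values of 0.499 and 0.523 by limma.

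CUST_14367_PI429484123 was the 1 probe matched to a single gene that met the 2-fold criterion for lowered probes. It matched the provisional gene LOC134484513 at chrY:40298680-40298739 (plus strand) with 2 mismatches over 60 bases, and is itself a short repeat, so the source of its signal is uncertain. It read -1.62 and -1.02 after CA and -0.91, 0.52 and -0.55 in the controls. CA replicate 2 was 0.11 below the lowest control, and the controls spread widely. The difference was -1.004, with a limma adjusted p of 0.590. On the earlier day it read -1.27, -1.04 and -1.37 after CA and -1.32 on the control, with the control inside the CA range.

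Il1r1 and Ptgs2 were the other list genes with a tested probe in the transcript, and in neither did the CA arrays lie on 1 side of the controls. Il1r1, the receptor of interleukin 1, read 2.00 and 1.85 after CA and 1.62, 1.93 and 1.70 in the controls, a difference of 0.17 (limma adjusted p = 0.930). Ptgs2, an inducible cyclooxygenase, was measured by CUST_23144_PI429484123, which has 17 of its 60 bases past the start. It read -3.88 on CA replicate 1, below the controls at -3.69, -3.72 and -3.57, and -2.75 on CA replicate 2, above them. The direction of Ptgs2 thus differed between the CA rats, and its difference was 0.35 with a standard error of 0.32.

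By place in the genome, chromosome 19 had the highest median difference. Of the tested probes that matched windows of a single chromosome, 56 were placed on chromosome 19, with a median difference of 0.89, against -0.02 for the 371 placed on the other chromosomes and -0.00 for all tested probes. On chromosome 19, 19 of 56 probes (33.9%) were among the raised, against 1.35% of those placed elsewhere and 1.28% of all tested probes. Both CA arrays were above the control range on 32 of the 56 and below it on none, against 11.4% and 12% of all tested probes. Chromosome 17, with 15 placed probes that include probes at histone genes, had a median of 0.20, with 8 of the 15 above the control range, none below it and 2 raised. The number of raised probes on chromosome 19 was 3 with normexp background correction, 31 with the deposited values, 1 without CA replicate 1 and 41 without CA replicate 2. Chromosome 19 was singled out after the values were seen, and no test is given.

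Of the 56 probes placed on chromosome 19, 28 matched several windows and 28 matched 1. The raised ones among the 56 lay between positions 10453796 and 39711858 (GRCr8), and all but 1 of them from 14562853 on. That span holds starts of 381 genes, of which 308 have only a provisional LOC symbol. The named ones include 5 Dlg5l genes and 6 Speer4cl genes, rodent families with many similar copies. Of the 19 raised probes, 16 matched more than 1 window, up to 14, so a signal there can come from several copies. The 28 probes with several windows had a median difference of 1.02, and the 28 with 1 window had 0.63. A further 31 tested probes matched no window but shared sequence with a probe placed there, and their median was 0.96.

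A pair of these probes is printed whole, since they show how alike the copies are. Capitals mark the 29 bases they share without a mismatch. They lie before annotated starts, A_64_P035238 at chr19:28839956-28840015 with 1 mismatch and A_64_P138127 at chr19:26879196-26879255 with 3 mismatches, both on the plus strand, and each matched 3 or more windows.
A_64_P035238: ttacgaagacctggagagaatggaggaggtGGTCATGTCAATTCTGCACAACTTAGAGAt
A_64_P138127: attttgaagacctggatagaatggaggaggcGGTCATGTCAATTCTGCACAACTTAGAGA
A_64_P035238 read 1.53 and 0.54 after CA and -0.01, -0.16 and 0.21 in the controls. A_64_P138127 read 1.67 and 0.62 against 0.10, -0.10 and 0.32. In each, CA replicate 1 was about 1 log2 unit above CA replicate 2.

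The higher values on chromosome 19 were mainly those of 1 rat. On CA replicate 1 the median of the 56 probes was 1.49 above the control mean, and on CA replicate 2 it was 0.26. CA replicate 1 read higher than CA replicate 2 on 53 of the 56. It was at least 2-fold above the control mean on 41 probes, and CA replicate 2 on 1. The controls' medians lay between -0.06 and 0.05, and no probe of the set passed limma's test with all 5 arrays (30 of the 56 had an unadjusted p under 0.05). Among the 19 raised probes, CA replicate 1 exceeded the highest control by a median of 1.61, and CA replicate 2 by a median of 0.25. Without CA replicate 1 the set's median was 0.26, and without CA replicate 2 it was 1.49.

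**Figure D3:**
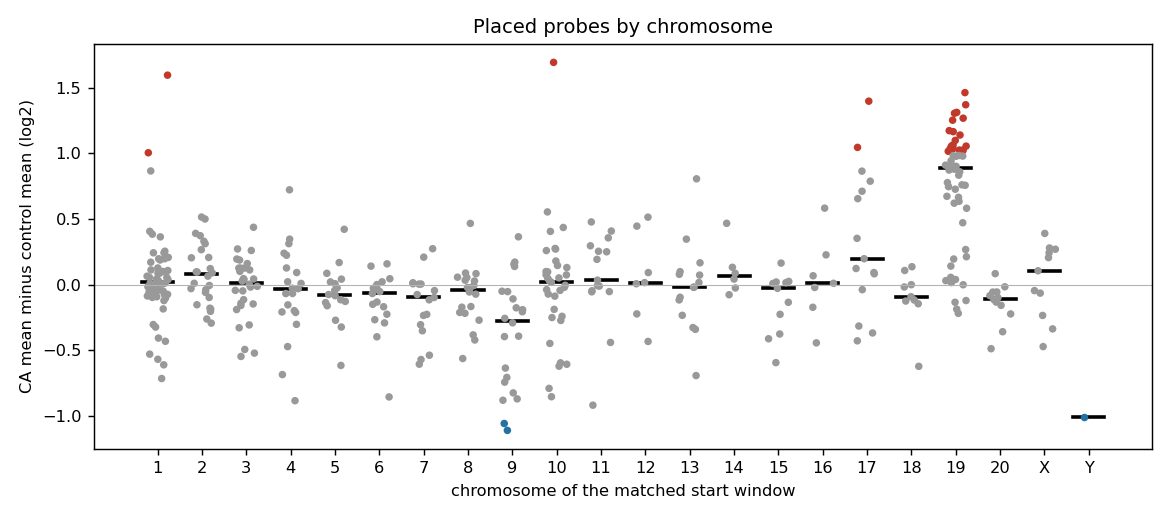
CA mean minus control mean (log2) of the tested probes placed on a single chromosome. Each point is 1 probe, red for raised and blue for lowered, and bars are medians. Chromosome 19 has a median of 0.89 and chromosome 17, with 15 probes, one of 0.20, while chromosomes with at least 20 probes other than 9 and 19 have medians within 0.08 of 0.

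On chromosome 9 the opposite was seen on a smaller scale. Its 22 placed probes had a median difference of -0.27. The 14 at provisional genes with symbols that start with LOC1344 had a median of -0.67. Of these, 7 were below the control range (12% of all tested probes) and none above it (11.4%). The other 8 had a median of -0.05. The median of the 14 was -0.89 on CA replicate 1 and -0.36 on CA replicate 2. The 3 controls, at 0.01, 0.30 and -0.30, spread nearly as far as CA replicate 2.

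Probes that matched windows on 5 or more chromosomes mostly read lower on the CA arrays. There were 8 of them, and 6 had both CA arrays below the control range, against 12% of all tested probes. Relative to the control mean, the median of all 8 was -0.97 on CA replicate 1 and -0.35 on CA replicate 2. For the 6 lower ones it was -1.05 and -0.41. By these medians CA replicate 1 was the more extreme array, as it was for the probes placed on chromosomes 9 and 19.

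The 4 arrays of the earlier scan day, which took no part in choosing these probes, give values for the same contrast in other rats. Of the 344 raised probes, 156 were well above background on all 4. In 109 of them (69.9%) all 3 CA arrays were above the 1 control, as were 23.8% of all tested probes so measured (4025 of 16898). The median CA minus control difference was 1.19 for the raised probes and -0.00 for all. Of the 210 lowered probes 69 could be measured, and in 22 (31.9%) all 3 CA arrays were below the control, against 26.1% of all. The raised probes were thus mostly higher on the earlier day too, whereas the share of lowered probes that were lower was near the background. A single control array stands behind each of these shares, and they carry no test.

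**Figure D4:**
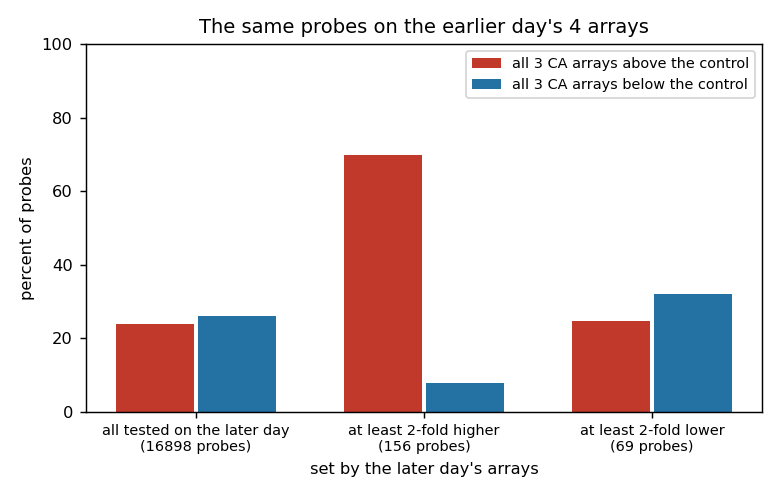
Percent of probes with all 3 CA arrays of the earlier scan day above (red) or below (blue) its 1 control, for all probes tested on the later day and for those raised or lowered there. Counts in brackets are the probes well above background on all 4 earlier arrays. The bar for raised probes reaches 69.9%, against 23.8% for all probes.

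The 3 probes called higher were above the control on each CA array of the earlier day too. CUST_11526_PI429484123 read 5.12, 3.47 and 5.87 on CA replicates 3, 4 and 5 and -0.91 on control replicate 1. A_42_P535644 read 5.71, 5.89 and 6.25 against 2.32, and A_64_P020938 read 2.86, 2.44 and 3.15 against 0.71. The uncalled A_44_P1042876 read 4.32, 2.58 and 4.95 against -1.86. None of the 4 probes called lower was well above background on more than 1 of the 4 earlier arrays. Their CA minus control differences there, from such dim values, were 1.55 for A_44_P563447 and 1.93 for A_64_P096277. For A_64_P079528 and A_64_P003254 they were 0.30 and -2.29. Of these probes only A_64_P003254 read lower after CA there. Values so close to background cannot show whether the lower signal of the later day repeats. A_43_P11616 read 5.22, 3.40 and 5.40 on the earlier CA arrays and -0.28 on the control. A_43_P15565, which had the largest bound in the other direction, read -1.05, -2.21 and -2.42 on those CA arrays. The control read -2.48, so this probe was not lower after CA on the earlier day.

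The probes with a gene or place divided further. The Hbb probe read 2.96, 2.66 and 2.06 after CA on the earlier day and 0.11 on the control, and the alpha-globin probe 5.70, 5.26 and 4.69 against 2.60. In both the earlier CA arrays stood clear of the control, as CA replicate 1 did on the later day. The histone probe A_64_P068622 read 3.40, 2.64 and 3.87 against 3.20, with the control inside the CA range. Of the 56 chromosome 19 probes only 12 were well above background on all 4 arrays. All 3 CA arrays were above the control on 4 of these and below it on 4, and the median difference was 0.01.

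**Figure D5:**
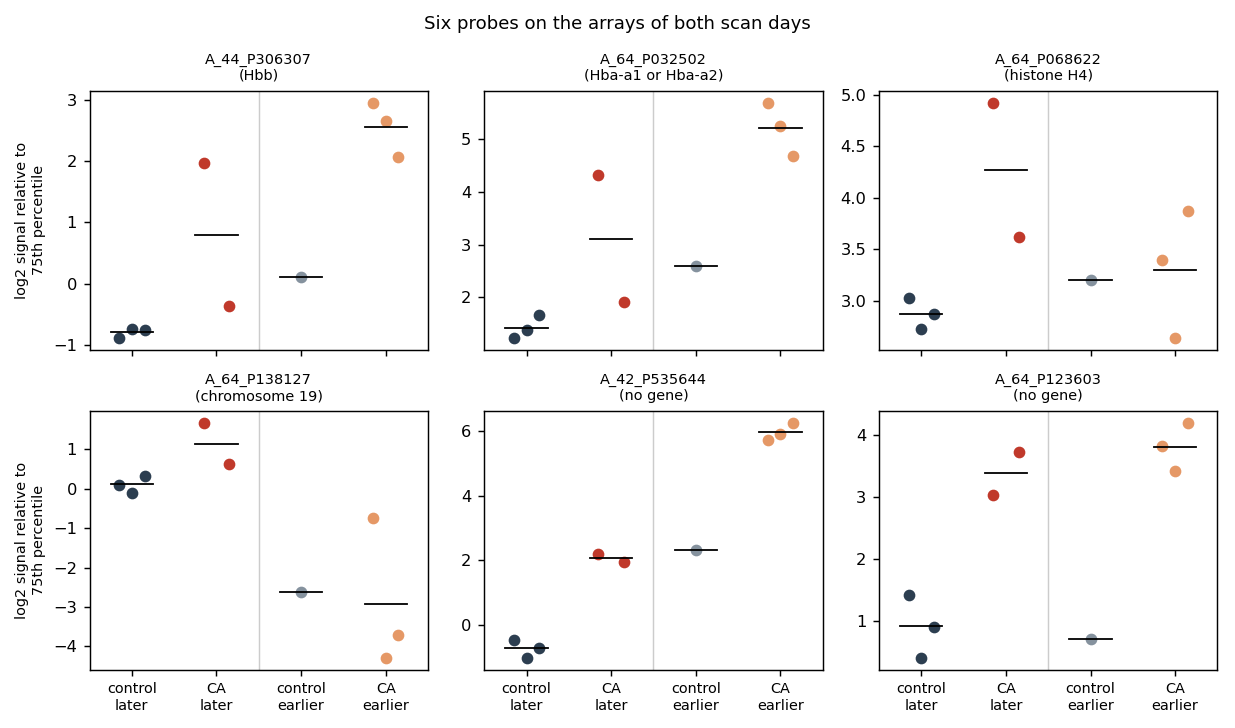
Level of 6 probes, in log2 units from the 75th percentile of the array, on the controls and CA arrays of the later and the earlier scan day. Each point is 1 array and each bar a group mean. The globin probes, A_42_P535644 and A_64_P123603 are higher after CA on both days. The histone and chromosome 19 probes are higher on the later day and overlap the control on the earlier day. The histone probe A_64_P068622 is labelled histone H4 after its matched window, though its bases encode histone H3. The chromosome 19 probe A_64_P138127 was well above background on only 2 of the 4 earlier arrays.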

How the data were processed

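For each array the authors deposited scanner output with a fluorescence intensity per spot. The software was Agilent Feature Extraction 10.7.1.1 by the submitters' processing notes. This intensity is background-subtracted and detrended within the array, per the file headers. The files' other columns deposited by the authors mark spots with 0 or 1 as well above background or outlier. A deposited table of log2 values, made by a method not given in the sources used here, served as an alternative: each of its columns has a median of 5.87, so its centring is by array and its exact normalization unknown. Its slope on the scanner values was 0.98 to 1.01. Spearman's correlation with the scanner values of the same array was 0.944 to 0.959. This was below the 0.961 to 0.984 between scanner values of different arrays, so the deposited values departed from them for many probes.

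Control spots and outlier spots were left out, log2 signals were averaged per probe, and each array's 75th percentile was subtracted. Probes well above background on all 5 arrays were tested with limma 3.58.1 in R 4.3.3 (lmFit, eBayes, 2 CA against 3 controls), with intervals at 95%. The script was tested on simulated data. The number of arrays limits the precision. Samples were grouped by the labels, and arrays by the scan day in the headers. Alternatives covered the filter, normalization, background correction, model, arrays used and each left-out array.

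Probes were placed with blastn 2.17.0 on RefSeq start windows (GRCr8). A match needed 57 bases at 95% identity, or, where a probe runs over the window's edge, 25 bases with at most 1 mismatch. A gene was named if the probe matched 1 gene in sense, with at least 10 bases past the start. The design had asked for a longer match, and the edge rule was added after the data were seen. Promoters were not printed.

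Named were the probes with the smallest p in each direction, those of 1 gene furthest outside the control range, list genes, and the largest bounds. Others, including the overlapping pairs, chromosomes 9 and 19 and the earlier day's values, were chosen after their values were seen. The members and lists were chosen with earlier results of these data known.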

Additional observations from a re-analysis of the deposited data

How the results depend on the processing

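No paired analysis was possible because the CA and control arrays share only 1 replicate number. The counts of probes called higher and lower by limma, 3 and 4, became 6 and 9 with probes measured in either group, 22 and 14 with normexp background correction, 18 and 11 with a mean-variance trend, and 7 and 0 with all 9 arrays and scan day as a block (1302 at an unadjusted p under 0.05). Without a filter both were 0 (2979 at an unadjusted p under 0.05), and with the deposited values no probe was called higher (2168 at an unadjusted p under 0.05). Leaving out 1 array gave 0 to 180 higher and 0 to 79 lower. The counts of raised and lowered probes, 344 and 210, became 548 and 318 with the wider filter, 864 and 534 without a filter, 109 and 81 with normexp, and 601 and 660 with the deposited values. Leaving out 1 array gave 367 to 759 and 194 to 492. Wider filters test more probes. For normexp, the trend, the block and the deposited values the cause was not tested. Quantile normalization, median centring and array weights kept all 4 counts within 1.5 times, and the range criterion was not applied over both days. Over 57 named probes and 14 settings, 1 of 798 differences changed direction, that of Ptgs2, from -0.22 without CA replicate 2 to 0.91 without CA replicate 1. All named probes but those of Il1r1 and Ptgs2 had both CA arrays outside the control range. Leaving out 1 array could therefore not reverse them, and this count is no measure of robustness. The median of the chromosome 19 probes stayed above 0 in every setting, from 0.26 to 1.49. With 2 CA arrays and dim probes near background, small differences were not detectable.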
